A study of Rattus norvegicus with 7 samples.

Results

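Vimentin, lamin A and an S-100 related protein were followed in the injured rat cortex through 4 cDNA clones, RNABM67 (vimentin), MKAH11 (lamin A), RGIAB08 (lamin A and lamin C2) and RNABO14 (S-100 related protein), chosen by their clone IDs out of the 6240 features of the array. RNA was taken from male Sprague Dawley rats with a cerebral cortical contusion, made by a weight drop 2.5 mm behind bregma and 2.5 mm to its side. Animals were killed 1 day (1 dpi, n = 3) or 4 days (4 dpi, n = 4) after injury. On each of the 7 arrays, 1 per animal, ipsilateral cortex with the impact area was compared with contralateral cortex from that animal, which had no contusion and served as control. The labels name no transgene and no drug treatment. According to the paper, all rats had Hypnorm-Dormikum anaesthesia and Xylocaine under the skin for surgery. Sham-operated animals were not analysed here. The craniotomy was therefore part of the injured side alone, and its share of a change cannot be told apart from that of the contusion.

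Values are log2 ratios of injured over uninjured cortex, so that 0 is no difference and 1 is a doubling on the injured side. A clone was called upregulated at a limma adjusted p of 0.02 or less with a mean log2 ratio above 0.7, and downregulated with a mean below -0.7. A ratio carries no absolute level, so the 4 clones cannot be ordered by abundance, and more cells of a type cannot be told apart from more RNA per cell.

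Vimentin is an intermediate filament protein of astrocytes, mesenchymal cells and many immune cells, and reactive astrocytes around a brain lesion raise it together with glial fibrillary acidic protein. Lamin A and lamin C are splice forms of the Lmna gene and line the inner nuclear membrane as a filament meshwork, and lamin C2 is a shorter form known from the testis. S-100 proteins are small calcium-binding proteins of the EF-hand type, and several of them bind annexins or cytoskeletal proteins. The listed name of RNABO14 gives no S-100 family number, and its listed accession was not matched to a gene here, and no clone named for glial fibrillary acidic protein is among the 4.

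The regions before the start sites of the genes for vimentin and lamin A are shown because vimentin and both lamin clones had ratios above 0 on every array that measured them. Both come from RefSeq on the GRCr8 assembly, with 250 bases before the start and 20 after it, and capitals mark matches to the motifs named beneath them. The Vim window is chr17:81577011-81577280 on the plus strand, and the Lmna window is chr2:176258216-176258485 on the minus strand, at a start that lies within the annotated span of Lmna.
Vim: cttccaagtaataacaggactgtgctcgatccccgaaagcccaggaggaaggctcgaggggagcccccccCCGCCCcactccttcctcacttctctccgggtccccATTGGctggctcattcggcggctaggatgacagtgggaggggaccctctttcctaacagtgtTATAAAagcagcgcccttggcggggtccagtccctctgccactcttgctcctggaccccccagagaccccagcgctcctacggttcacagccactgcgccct
Lmna: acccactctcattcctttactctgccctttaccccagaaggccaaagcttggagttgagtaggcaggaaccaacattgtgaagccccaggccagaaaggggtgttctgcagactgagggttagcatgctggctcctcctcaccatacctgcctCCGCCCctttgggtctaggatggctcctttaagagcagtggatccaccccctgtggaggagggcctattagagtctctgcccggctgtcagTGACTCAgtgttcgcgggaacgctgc

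Of 5 motifs searched on both strands, the Vim window held a TATA box (TATAAA) that begins 82 bases before the start, a CCAAT box read on the opposite strand that begins at base -144 and a GC box (GGGCGG), also on the opposite strand, at base -180. The Lmna window held an AP-1 site (TGACTCA) from base -6, running across the start, and a GC box on the opposite strand at base -97. Among 33469 windows of this length, 13.4% held TATAAA, 35.5% CCAAT, 31.7% GGGCGG and 4.31% TGACTCA. Neither window held TTCNNNGAA, the STAT site, which was in 8.18% of all windows. Such matches describe the letters of the windows, and binding was not measured.

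Vimentin was higher in the injured cortex of all 7 animals. At 1 dpi the log2 ratio of RNABM67 was 1.10, 1.07 and 1.94 on replicates 1 to 3, and at 4 dpi it was 1.70, 2.04, 2.70 and 2.78 on replicates 1 to 4. The 2 lowest values at 1 dpi lay close together and the third was higher than the lowest value at 4 dpi, so the days overlapped on 1 array of each. The mean was 1.37 ± 0.49 at 1 dpi (SD, n = 3), a 2.58-fold ratio, with a limma adjusted p of 0.000598. At 4 dpi it was 2.31 ± 0.52 (SD, n = 4), a 4.95-fold ratio, with a limma adjusted p of 9.33e-05. Vimentin was thus called upregulated at both days, and its mean was the 47th highest of 4952 features tested at 1 dpi and the 5th highest of 3191 at 4 dpi.

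The S-100 related protein was also higher on the injured side of all 7 animals, with the most even values of the 4 clones at 1 dpi. RNABO14 read 1.97, 2.05 and 1.93 on replicates 1 to 3 of 1 dpi, a mean of 1.98 ± 0.06 (SD, n = 3) or 3.95-fold, with a limma adjusted p of 5.44e-06. On replicates 1 to 4 of 4 dpi it read 0.70, 1.43, 2.90 and 1.99. Replicate 1 was the lowest and replicate 3 the highest value of this clone on any array, so that the spread at 4 dpi covered all values of 1 dpi. The mean at 4 dpi was 1.76 ± 0.93 (SD, n = 4), a 3.38-fold ratio with a limma adjusted p of 0.00454. The clone was called upregulated at both days, as the 18th highest mean at 1 dpi and the 12th at 4 dpi. The call at 4 dpi was lost without replicate 4 (mean 1.68, limma adjusted p of 0.0230) and with robust eBayes (mean 1.76, limma adjusted p of 0.0360), where the p missed its limit.

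The lamin A clones were measured on fewer arrays. MKAH11 read 1.10 and 1.24 on replicates 1 and 2 of 1 dpi and had no value on the third array or on any array of 4 dpi. The study lists a change at 4 dpi for this clone although no value stood under its ID, so the missing values do not show that it was not measured at that day. Its mean at 1 dpi was 1.17 ± 0.10 (SD, n = 2), a 2.25-fold ratio with a limma adjusted p of 0.00113, and it was called upregulated. Both arrays had the injured side in Cy5, so no dye-swapped value stands behind this call. RGIAB08 read 0.48, 0.85 and 0.75 at 1 dpi. Its mean there was 0.69 ± 0.19 (SD, n = 3), a 1.62-fold ratio with a limma adjusted p of 0.00548, and it was not called because the mean was just below 0.7. With the other form of the study's limit, a fold change beyond 1.6, RGIAB08 passed, and without replicate 1 its mean was 0.80 with a limma adjusted p of 0.000611. Without replicate 2 its mean was 0.61 with a limma adjusted p of 0.0379, which missed both limits.

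At 4 dpi RGIAB08 read 0.39 on replicate 1 and 1.21 on replicate 2, and had no value on replicates 3 and 4. With 2 of 4 arrays it was below the 3 arrays needed for a test. Where 2 arrays were accepted, a choice made after seeing the data, its mean of 0.80 ± 0.58 (SD, n = 2) had a limma adjusted p of 0.0520 and was not called, while 2.53% of 4151 features were called upregulated. The arrays without a value for RGIAB08 were those with the fewest measured features, 2332 and 3270 of 6240. The change listed by the study for RGIAB08 at 4 dpi differed by more than 0.2 on the log2 scale from the mean under this clone ID and was of opposite sign to both values, whereas at 1 dpi it lay within 0.2. The identity of the 4 dpi values of RGIAB08 is therefore uncertain, and every comparison below that uses them carries this doubt.

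In all, 3 of the 4 clones were called upregulated at 1 dpi, beside 3.90% of the 4952 features tested, and none was called downregulated, beside 1.51%. At 4 dpi both clones tested, vimentin and S-100 related protein, were called upregulated, beside 2.63% of 3191 features, and neither downregulated, beside 0.376%. The clones are in the study's own lists of genes changed on these arrays, so these counts are no independent evidence of the direction. The median of all means was 0.01 at 1 dpi and -0.01 at 4 dpi.

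**Figure D1:**
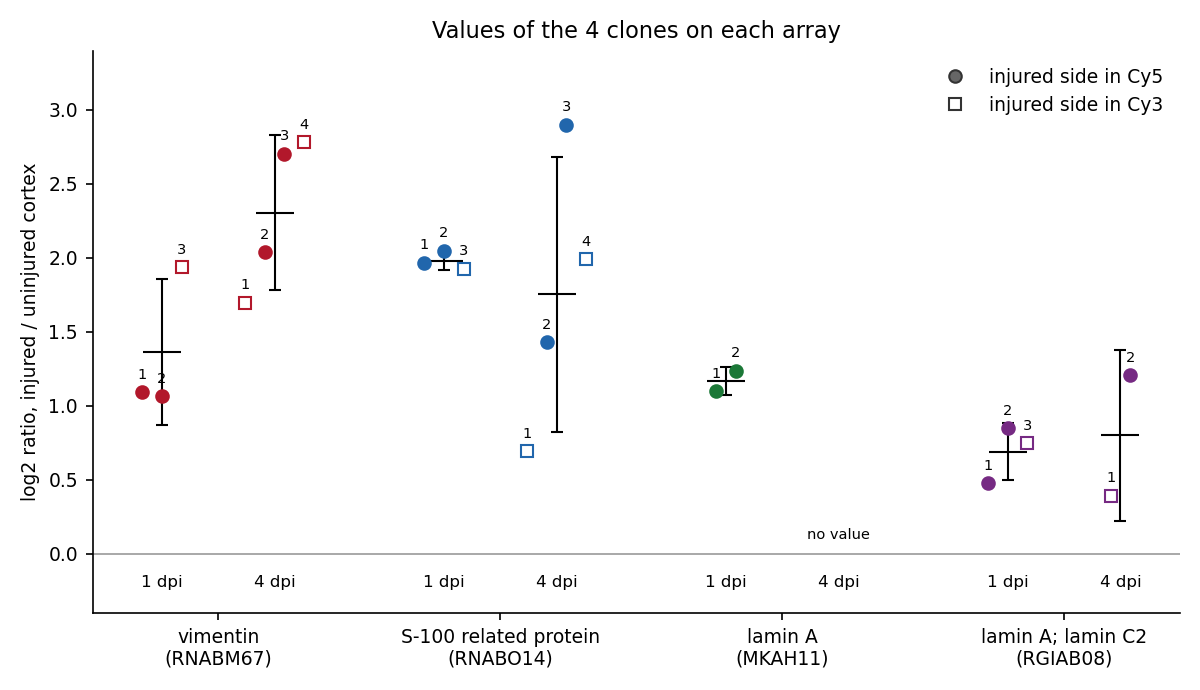
Log2 ratio of injured over uninjured cortex (y axis) of the 4 clones at 1 and 4 dpi (x axis). Each point is 1 array with its replicate number, filled circles have the injured side in Cy5 and open squares in Cy3, and the bars are the mean and SD over arrays. All points are above 0, vimentin reached 2.78 at 4 dpi, S-100 related protein ranged from 0.70 to 2.90 at 4 dpi, and MKAH11 had no value at 4 dpi.

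Arrays differ in the spread of their ratios, so each clone was also ranked among the features measured on the same array, as a description. Vimentin had 85, 102 and 19 features above it on replicates 1 to 3 of 1 dpi, and 8, 15, 5 and 6 above it on replicates 1 to 4 of 4 dpi. It was therefore nearer the top on each array of 4 dpi than on any array of 1 dpi, with 99.7% to 99.8% of features below it at 4 dpi and between 97.8% and 99.6% at 1 dpi. S-100 related protein had 19, 18 and 20 features above it at 1 dpi, and 112, 45, 4 and 21 at 4 dpi. Its position was steady at 1 dpi and spread at 4 dpi, with 97.3% of features below it on replicate 1 and 99.8% on replicate 3. MKAH11 had 82 and 69 features above it on its 2 arrays. RGIAB08 had 441, 169 and 256 features above it at 1 dpi, and 405 and 68 on its 2 arrays of 4 dpi, the lowest of the measured clones on each of these 5 arrays.

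**Figure D2:**
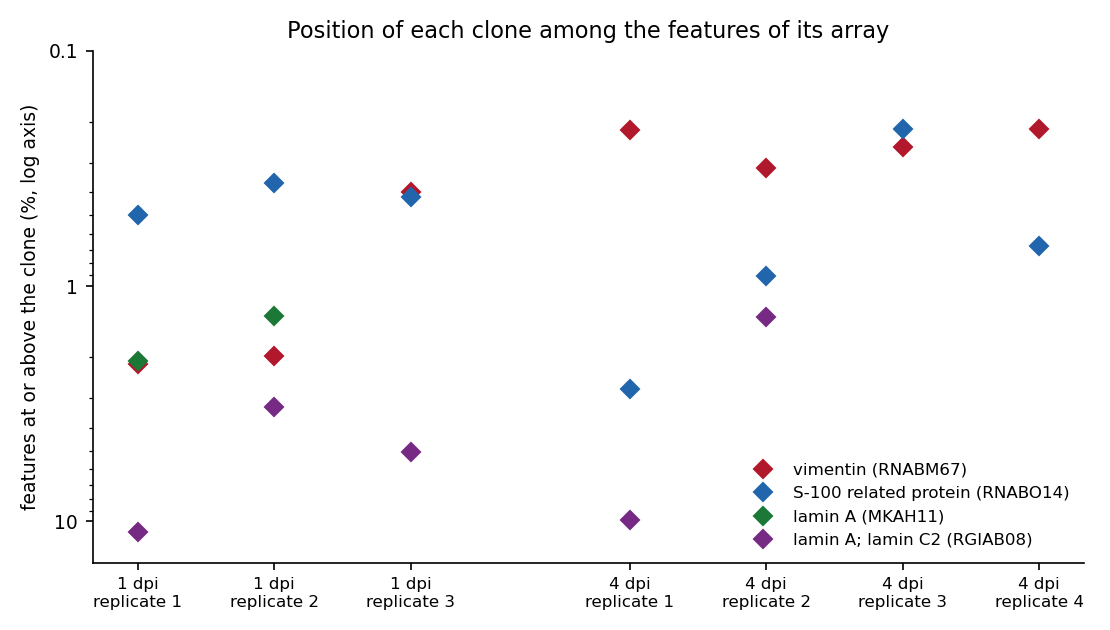
Share of the features of an array with a log2 ratio at or above that of the clone (y axis, percent, log scale with the top of the array uppermost), for each array (x axis). Vimentin lies higher on all 4 arrays of 4 dpi than on any 1 dpi array, and RGIAB08 is the lowest of the measured clones on its 5 arrays.

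The change from 1 to 4 dpi was tested in 1 limma fit of all 7 arrays over 3188 features, of which 3.48% were called higher and 1.51% lower at 4 dpi at an adjusted p of 0.05 or less. The log2 ratio of vimentin was 0.94 higher at 4 dpi than at 1 dpi (95% confidence interval 0.34 to 1.54), with a limma adjusted p of 0.0742, and was not called. The call depended on which arrays entered. It was made without replicate 3 of 1 dpi (difference 1.22, limma adjusted p of 0.0311), without replicate 1 of 4 dpi (1.14, limma adjusted p of 0.0227), and with the arrays scaled to a common spread (1.13, limma adjusted p of 0.0133). It was not made without replicate 1 (0.80, limma adjusted p of 0.277) or replicate 2 (0.79, limma adjusted p of 0.267) of 1 dpi. Without replicate 3 of 4 dpi the limma adjusted p was 0.173, without replicate 4 it was 0.253, and with robust eBayes it was 0.125. Among the arrays with the injured side in Cy5, the mean of vimentin was 1.08 at 1 dpi (n = 2) and 2.37 at 4 dpi (n = 2), and among those in Cy3 it was 1.94 at 1 dpi (n = 1) and 2.24 at 4 dpi (n = 2).

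For S-100 related protein the difference was -0.23 (95% confidence interval -1.03 to 0.58), with a limma adjusted p of 0.788. The interval is wide and holds a rise as well as a fall, and without replicate 1 of 4 dpi the difference was 0.13. The dyes went opposite ways, from 2.01 at 1 dpi to 2.17 at 4 dpi in Cy5 and from 1.93 to 1.34 in Cy3. RGIAB08, with its uncertain 4 dpi values, differed by 0.11 between the days (95% confidence interval -0.44 to 0.66) where 2 arrays of each day were accepted, with a limma adjusted p of 0.875, while 2.00% of 4097 features were called higher. Its Cy5 mean went from 0.66 to 1.21 and its Cy3 value from 0.75 to 0.39. No difference could be given for MKAH11.

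The 2 lamin clones could be compared on the 2 arrays that measured both, replicates 1 and 2 of 1 dpi. MKAH11 exceeded RGIAB08 by 0.62 on replicate 1 and by 0.39 on replicate 2, a mean of 0.51 ± 0.17 (SD, n = 2), so that its ratio was 1.42 times that of RGIAB08. Both clones were above 0 on both arrays, and both read higher on replicate 2 than on replicate 1. An exact two-sided sign-flip permutation test gave p = 0.5, the smallest p that 2 arrays allow. No correlation between the clones was computed, since 2 arrays are too few for one. The clones may cover different parts of the transcript, and their positions are not given in the sources used here.

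Within an array, the difference of 2 clones does not depend on how the array was centred. Vimentin minus S-100 related protein was -0.87, -0.98 and 0.01 on replicates 1 to 3 of 1 dpi, and 1.00, 0.61, -0.20 and 0.79 on replicates 1 to 4 of 4 dpi. S-100 related protein thus had the higher ratio on 2 of 3 arrays at 1 dpi and vimentin on 3 of 4 arrays at 4 dpi, with replicate 3 of 4 dpi going the other way. The mean went from -0.62 to 0.55, a change of 1.17 (exact two-sided permutation test, p = 0.0857, 0.15 adjusted over the 3 pairs tested), where 0.0286 was the smallest p possible.

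S-100 related protein minus RGIAB08 was 1.49, 1.20 and 1.18 at 1 dpi. It was 0.30 on replicate 1 and 0.22 on replicate 2 of 4 dpi, the 2 arrays of that day that measured both. The days did not overlap, and the change of -1.03 had the smallest p that 3 against 2 arrays allow (exact two-sided permutation test, p = 0.1, adjusted 0.15). The 2 arrays of 4 dpi that enter here were the ones on which S-100 related protein was lowest, and the values of RGIAB08 on them are of uncertain identity. Vimentin minus RGIAB08 went from 0.68 to 1.07, a change of 0.39 (exact two-sided permutation test, p = 0.4, adjusted 0.4). The remaining 3 of the 6 pairs hold MKAH11 and could not be compared between the days.

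**Figure D3:**
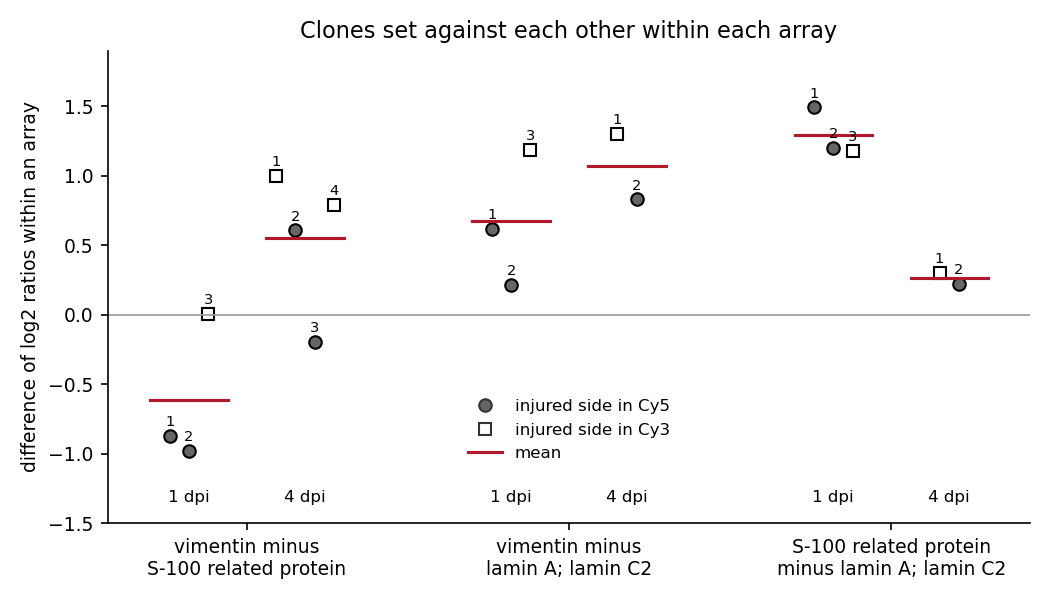
Difference of the log2 ratios of 2 clones on the same array (y axis) for the 3 pairs measured at both days (x axis). Points are arrays with their replicate number, filled circles have the injured side in Cy5, open squares in Cy3, and red lines are means. Vimentin minus S-100 related protein had a mean of -0.62 at 1 dpi and 0.55 at 4 dpi, and S-100 related protein minus RGIAB08 was 1.18 or more at 1 dpi and 0.30 or less at 4 dpi.

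Replicate 1 of 4 dpi, with the injured side in Cy3, was least like replicates 1 and 2 of 1 dpi, which had it in Cy5. Across features its ratios had a Pearson r of 0.16, 0.01 and 0.42 with replicates 1 to 3 of 1 dpi, the third being in Cy3. The other arrays of 4 dpi had r between 0.26 and 0.64 with them. Replicate 4 of 4 dpi, also in Cy3, had 0.35, 0.26 and 0.53. Within 4 dpi, replicate 1 had r of 0.49, 0.52 and 0.74 with replicates 2, 3 and 4. The part of the dye in this was not tested. Of 69 features called upregulated at 4 dpi with a value on all 4 arrays, 52.2% were lowest on replicate 1, against 20.1% of the 2269 tested features with 4 values. All 3 clones measured on this array, vimentin, S-100 related protein and RGIAB08, had their lowest value of 4 dpi there. Without it the mean at 4 dpi was 2.51 for vimentin and 2.11 for S-100 related protein, and both stayed called.

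Annexin II, a membrane-binding protein that forms a complex with the S-100 family member S100A10, was measured by clone RGIAP49 on all 7 arrays. Its log2 ratio was 1.54, 1.61 and 2.01 at 1 dpi and 0.34, 1.77, 1.41 and 1.66 at 4 dpi. As for S-100 related protein, replicate 1 of 4 dpi was the lowest. Its mean was 1.72 ± 0.25 (SD, n = 3) at 1 dpi and 1.29 ± 0.65 (SD, n = 4) at 4 dpi, called upregulated at both days, with a difference of -0.43 (limma adjusted p of 0.456). Of the other 3 annexin clones, annexin III was called upregulated at 4 dpi and annexin A7, the lowest of the group at 4 dpi with a mean of -0.54, was called downregulated at 1 dpi.

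Of 6 other clones of the cytoskeleton and its membrane linkers, 5 were called upregulated at 1 dpi, and 2 of the 4 tested were called at 4 dpi. The median was 0.92 at 1 dpi and 0.76 at 4 dpi. Moesin, which ties actin to the plasma membrane, had the highest mean at 4 dpi, 1.43, after 1.72 at 1 dpi. Its relative ezrin had the lowest, 0.55, after 1.00 at 1 dpi. Thymosin beta-10, which binds actin monomers, had 0.22 at 1 dpi, where it was not called (limma adjusted p of 0.262), and was the 1 clone of the group called higher at 4 dpi than at 1 dpi, by 0.63 (limma adjusted p of 0.0308). In the nuclear transport group, RAN, the GTPase that drives transport through the nuclear pore, was called upregulated at 1 dpi with a mean of 1.37. At 4 dpi RAN had 2 values of opposite sign, 1.25 on replicate 2 and -0.20 on replicate 4, with a mean of 0.52. The nucleoporin-like protein RAB/Rip had 0.57 at 1 dpi and 0.20 at 4 dpi and was called at neither.

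Of the 5 clones of genes known from reactive astrocytes, 5 were called upregulated at 1 dpi, with a median of 2.06, and 1 of the 3 tested was called at 4 dpi. The contrapsin-like protease inhibitor CPI-26 had the highest mean at 4 dpi, 2.29, and Stat3, a transcription factor of cytokine signalling, the lowest, 0.45 over 2 arrays. The 2 Stat3 values were of opposite sign, -0.38 on replicate 1 and 1.29 on replicate 2. The mean over this group was between 2.07 and 2.56 on the 1 dpi arrays, and was -0.34 on replicate 1 of 4 dpi against 2.03 to 2.33 on the other 3 arrays of that day. These means rest on 5 clones on replicates 1 and 2 of 4 dpi and on 3 clones on replicates 3 and 4, so they do not compare the same clones throughout. None of the 3 clones tested was called different between the days.

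Vimentin is also made by macrophages, fibroblasts and vessel cells, so their markers are given beside it. Of 6 microglia and macrophage clones, 5 were called upregulated at 1 dpi and all 5 tested at 4 dpi, and 3 of 5 were called higher at 4 dpi. The mean over the group lay between 0.65 and 0.99 on the 1 dpi arrays and between 1.18 and 2.12 on the 4 dpi arrays. At 4 dpi it was lowest on replicate 1 and highest on replicates 3 and 4. The number of clones behind these 4 dpi means was 6 on replicates 1 and 2, 4 on replicate 3 and 5 on replicate 4. Vimentin had this order of arrays too, but so did the means over the cytoskeleton and reactive astrocyte groups. Of the 69 features called upregulated at 4 dpi with 4 values, 52.2% were lowest on replicate 1. On replicates 3 and 4, 44.9% and 33.3% of them were highest. Among the microglia and macrophage clones, osteoactivin, a glycoprotein of phagocytes, had the highest mean at 4 dpi, 3.34, and macrophage expressed gene 1 the lowest, 0.86. Of 6 matrix and vessel clones, 2 passed as upregulated at 1 dpi and 5 did so at 4 dpi, while 4 had a difference called higher at 4 dpi. The mean over this group lay between 0.24 and 0.80 at 1 dpi and between 0.90 and 1.24 at 4 dpi, but at 1 dpi 3 of the 6 means were below 0 and the median was 0.20. At 4 dpi fibulin 2 was highest at 1.80 and matrix Gla protein lowest at 0.39. These were the 2 clones of the group with a lower mean at 4 dpi than at 1 dpi, where fibulin 2 had 2.23 and matrix Gla protein 0.80. The part of these cells in the vimentin ratio was not tested.

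The neuronal clones chosen for comparison went the other way, with 2 of 5 called downregulated at 1 dpi and all 4 tested at 4 dpi. Their mean lay between -0.83 and -0.41 on the 1 dpi arrays and between -1.13 and -0.63 on the 4 dpi arrays. At 4 dpi CaM-KII inhibitor was highest at -0.76 and the delta subunit of the GABA-A receptor, with 1 value, lowest at -0.82. Of 3 oligodendrocyte clones, 1 was called downregulated at 1 dpi and 2 upregulated at 4 dpi, where myelencephalon specific protease was highest at 0.87 and oligodendrocyte-myelin glycoprotein precursor lowest at -0.01. The 3 clones grouped as plasma proteins were albumin, vitronectin and fibrinogen-like protein 2. All 3 were called downregulated at 1 dpi and neither of the 2 tested at 4 dpi, where albumin was highest at -0.31 and vitronectin lowest at -0.42. Transferrin, which also occurs in plasma, was counted with the oligodendrocyte clones. Its mean was 0.27 at 1 dpi, not called, and 0.81 at 4 dpi, called upregulated, so the fall depends on which clones were grouped. The mean over the plasma clones with a value, 2 or 3 per array at 1 dpi and 1 to 3 at 4 dpi, was -1.46 to -0.85 at 1 dpi and -0.61 to -0.21 at 4 dpi. These groups were drawn from the study's lists of changed genes, so their counts are no independent evidence of direction.

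**Figure D4:**
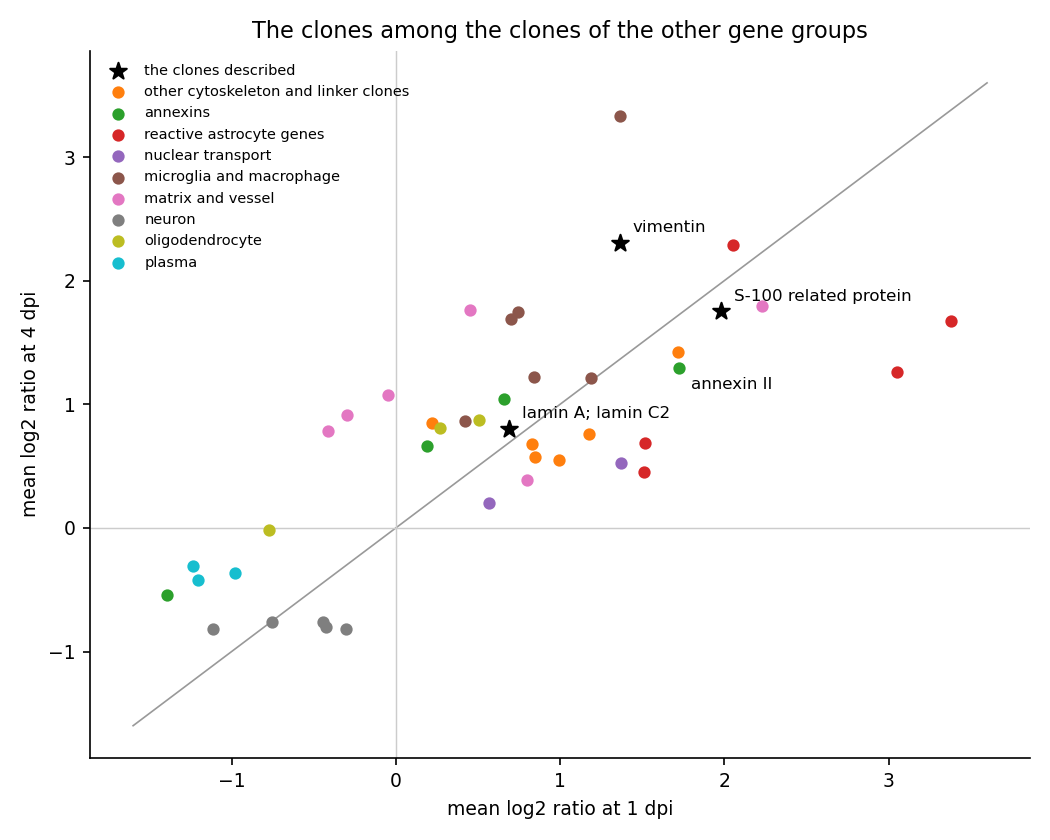
Mean log2 ratio at 4 dpi (y axis) against that at 1 dpi (x axis) of the clones with a value at both days, coloured by gene group, with the diagonal where both are equal. Stars are vimentin, S-100 related protein and RGIAB08. Vimentin lies above the diagonal at 1.37 and 2.31, S-100 related protein below it at 1.98 and 1.76, and annexin II below it at 1.72 and 1.29.

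The named clones nearest to each of the 4 were found by the root mean square difference of their log2 ratios over the arrays that measured the clone, among features measured on all of these arrays. For vimentin, over 7 arrays and 2189 features, they were nuclear factor kappa B (0.49, Pearson r 0.93), melanocyte-specific gene 1 protein (0.68, r 0.24) and C1q C chain precursor (0.70, r 0.90). For S-100 related protein they were melanocyte-specific gene 1 protein (0.56, r 0.59), FYN binding protein (0.58, r 0.58) and nuclear factor kappa B (0.64, r 0.52), and annexin II was 6th of all features (0.65, r 0.57). Vimentin and S-100 related protein were 0.73 apart with r 0.32. For RGIAB08, over 5 arrays and 3523 features, they were cathepsin Y (0.13), poly A binding protein, cytoplasmic 1 (0.21) and annexin III (0.23), an order that rests in part on the uncertain 4 dpi values. The correlations, given over 7 arrays, are descriptions over arrays that mix both days, and they share dye and spread between clones. For MKAH11, 2 arrays were too few for such an order.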

How the data were processed

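RNA of injured and uninjured cortex of 7 rats was hybridised to 2-colour cDNA arrays, 1 per animal. At 1 dpi, Cy5 labelled the injured side of 2 animals and Cy3 that of 1, and at 4 dpi each dye labelled the injured side of 2 animals. The authors left out spots less than 2 times above background, formed injured over uninjured ratios with swapped dyes turned, normalised each array by Lowess (SMA) and deposited log2 ratios. Of 6240 features, 2332 to 5208 had a value per array. The number of arrays limits the precision. No column of values was without a sample.

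Means were tested against 0 at each day with limma 3.58.1 (R 4.3.3) and Benjamini-Hochberg adjustment, needing 2 of 3 or 3 of 4 arrays, and the days were compared in 1 fit of 7 arrays. SAM, the methods' test, was an alternative, after gaps were filled from 10 near neighbours. Differences within an array were compared by exact permutation tests. In a simulation where 200 features were shifted by a log2 ratio of 2, limma recovered 92% at 1 dpi among 4952 features, 100% at 4 dpi among 3191, and 99.5% of the differences among 3188. Smaller shifts, such as the vimentin difference of 0.94, were not simulated, so recovery at that size is not known. Python 3.11.15, pandas 2.3.3 and matplotlib 3.10.9 prepared values and figures.

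Replicate numbers did not pair the arrays (r of same-numbered deviations -0.17, 0.01 and -0.27), and of 6 pairs of arrays with the same dye, 4 deviated together (r 0.27 to 0.41), so values are also given by dye. Names came from the study's lists by clone ID, 238 of 253 clones being used. Other clones were named as the highest and the lowest at 4 dpi of each of 9 groups, with annexin II and up to 3 named clones among the 10 nearest to each member. Thymosin beta-10 was named after its values had been seen. The alternatives were other tests, limits, filters, centring, scaling, weights, a dye term, the replicate block and left-out arrays. The clones, groups, motifs and tests were chosen with earlier results of these data known. The study's fold changes served only to check clone identity. The promoter of S100a10 was not analysed here.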

Additional observations from a re-analysis of the deposited data

Results flagged for a closer look

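Among 21 clones named in the text with 4 values at 4 dpi, 1 had a value far from the other 3. Ezrin (RNABM92) read 0.76 on replicate 3 of 4 dpi, against 0.47 to 0.49 on the other 3 arrays, so that the gap took 0.929 of the whole range, above Dixon's critical value at the 95% level. Chance marks about 1 in 20 such groups.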

How the results depend on the processing

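Vimentin at both days, S-100 related protein at 1 dpi and MKAH11 at 1 dpi kept their call and direction under each alternative that could be run, among them SAM, a dye term where both dyes were present, centring and scaling. For RGIAB08 at 1 dpi, the mean of 0.69 was called with no limit on the mean and with a fold change beyond 1.6, and so was the mean of 0.71 with a dye term. For S-100 related protein at 4 dpi, the mean of 1.76 was not called where 0.7 was needed on every array or with robust eBayes. The difference of vimentin was called with scaling (1.13), array weights (0.92) and an adjusted p limit of 0.1 (0.94). The replicate block gave a difference of 0.78 for vimentin (limma adjusted p of 0.0628) and -0.31 for S-100 related protein (limma adjusted p of 0.782), and called 24 features higher and 6 lower at 4 dpi against 111 and 48 without it. It changed neither of these 2 calls and was not run for the lamin clones. The causes were not tested.

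With each array left out in turn, means lay between 1.08 and 1.52 for vimentin at 1 dpi, 2.15 and 2.51 at 4 dpi, 1.95 and 2.01 for S-100 related protein at 1 dpi, 1.37 and 2.11 at 4 dpi, and 0.61 and 0.80 for RGIAB08 at 1 dpi. MKAH11 stayed at 1.17 without replicate 3, and leaving out either of its 2 arrays gave no test. For RGIAB08 at 4 dpi the single values were 0.39 and 1.21. The difference between days lay between 0.78 and 1.22 for vimentin, -0.61 and 0.13 for S-100 related protein, and -0.30 and 0.52 for RGIAB08. It turned its sign without replicate 1 of 4 dpi for S-100 related protein (0.13) and without replicate 2 of 4 dpi for RGIAB08 (-0.30). The gap between the lamin clones lay between 0.39 and 0.62. The change of vimentin against S-100 related protein lay between 0.98 and 1.48, and with an array left out the test could not reach 0.05, nor could any test of a pair with RGIAB08. Where 2 arrays of each day remained, the change of vimentin against RGIAB08 lay between 0.16 and 0.65. That of S-100 related protein against RGIAB08 lay between -1.08 and -0.93. The counts over all features moved with the settings. With no limit on the mean, 283 features were called upregulated and 136 downregulated at 1 dpi, against 193 and 75, and 151 and 67 at 4 dpi, against 84 and 12. With 0.7 needed on every array they were 112 and 26 at 1 dpi and 35 and 1 at 4 dpi. The differences ranged from 24 higher with the block to 176 higher with array weights.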
